A study of Mus musculus with 8 samples.

Results

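Polycomb group proteins keep developmental genes silent through modified histones. The 10 genes described here encode core subunits of the Polycomb complexes: Ezh1, Ezh2, Eed, Suz12, Jarid2 and Mtf2 of PRC2, and Ring1, Rnf2, Pcgf6 and Cbx7 of PRC1. They were picked by gene symbol for their roles in the complexes, with earlier results of these data known. All 10 were among the 14861 genes of the PRO-seq table, and all 10 passed the minimum mean signal of 0.5 that 14814 genes met. None was listed at 0 in any group.

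PRO-seq maps RNA that polymerases are in the act of making, and says nothing of how much mRNA or protein is present. The cells were a clonal mouse induced pluripotent stem cell (iPSC) line with the FUCCI2 cell-cycle reporter, cultured on irradiated feeders with serum, LIF and inhibitors of MEK and GSK3. The mitotic group was arrested with nocodazole, a microtubule poison, at 200 ng/ml for 6 h and collected by shake-off. The early G1 and late G1 groups had the same arrest and shake-off and were then released into fresh medium, taken here as 1 h and 3 h by the meaning of the column names. Asynchronous cells had no nocodazole. Each group had 2 libraries, which the authors' table merges into a single value for every gene. No difference below therefore has a replicate check, an error or a test, and the depth is unknown.

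PRC2 places methyl groups on lysine 27 of histone H3. EZH1 and EZH2 are its alternative catalytic subunits, EED reads the methyl mark and stimulates catalysis, and SUZ12 is the scaffold that holds the complex together. JARID2 and MTF2 are accessory subunits of separate PRC2 forms that help bring the enzyme to CpG-rich DNA. PRC1 places ubiquitin on histone H2A through RING1 (RING1A) or RNF2 (RING1B). CBX7 gives canonical PRC1 its affinity for the PRC2 mark, and PCGF6 defines a variant PRC1 that does not need that mark. In mouse pluripotent cells these complexes occupy the promoters of lineage regulators. Chromatin is compacted and transcription is low in mitosis, so each daughter cell has to resume transcription of the Polycomb genes themselves.

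The 10 genes lie on 9 chromosomes, with Ezh1 and Suz12 both on chromosome 11. Their annotated spans ran from 3889 bp for Ring1 to 190870 bp for Jarid2. For Ezh1, Suz12 and Ring1 the table's start site was also the outer end of the gene in the RefSeq annotation of GRCm38.p6. The 250 bases before the start are shown for these genes only. The start of Ezh2 was also the same in both sources, but it lay 240 bp inside the annotated gene, so its sequence is not shown. The sequences shown come from RefSeq and run 5′ to 3′ in the sense of the gene, with capitals marking the motifs described after them.
Ezh1, chr11:101226464-101226713, minus strand: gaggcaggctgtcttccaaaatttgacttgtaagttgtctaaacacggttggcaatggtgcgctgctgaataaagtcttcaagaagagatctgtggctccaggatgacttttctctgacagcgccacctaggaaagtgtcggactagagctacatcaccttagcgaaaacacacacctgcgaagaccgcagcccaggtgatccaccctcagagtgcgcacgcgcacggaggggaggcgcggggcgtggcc
Suz12, chr11:79992856-79993105, plus strand: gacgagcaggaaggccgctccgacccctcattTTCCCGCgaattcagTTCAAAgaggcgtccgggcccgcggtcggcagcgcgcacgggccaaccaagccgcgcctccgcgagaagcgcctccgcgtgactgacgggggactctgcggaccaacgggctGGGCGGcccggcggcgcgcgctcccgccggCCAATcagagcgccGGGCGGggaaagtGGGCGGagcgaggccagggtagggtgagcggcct
Ring1, chr17:34024681-34024930, minus strand: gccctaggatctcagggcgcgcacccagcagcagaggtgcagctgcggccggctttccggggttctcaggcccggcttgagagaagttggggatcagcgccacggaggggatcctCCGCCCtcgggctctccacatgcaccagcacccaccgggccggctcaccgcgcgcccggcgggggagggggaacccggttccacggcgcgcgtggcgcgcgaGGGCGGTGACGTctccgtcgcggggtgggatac

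The motifs were searched on both strands. For E2F factors the letters were TTCGCGC, with the variants TTGGCGC and also TTCCCGC, and for the CHR element of cell-cycle genes TTTGAA, with the variant TTCGAA. The others were GCGCATG for NRF1, then CCGGAAG for ETS factors, then AAGATGG for YY1, then CCAAT for NF-Y and GGGCGG for SP1. The TATA box was read as TATAAA, the cyclic AMP element (CRE) was read as TGACGT and the E-box was read as CACGTG. No motif contains another. The window for counting ran from 250 bases before to 50 bases after the RefSeq start, and 7 of the subunit genes had one within 250 bases of the table's start. Eed, Jarid2 and Cbx7 did not, their nearest windows lying 515, 2769 and 38473 bases away. The SP1 motif was in 5 of 7 windows (Suz12, Mtf2, Ring1, Rnf2 and Pcgf6), against 65.4% of 9751 windows of all genes measured the same way. The E2F motif was in the windows of Ezh2 and Suz12 (14.9% of all windows), and so was the NF-Y motif (38.7%). The CHR motif was found for Suz12 (12.9%) and the CRE motif for Ring1 (12.0%). None of the 7 held the NRF1 (7.47%), ETS (18.5%), YY1 (7.47%), TATA (6.91%) or E-box (10.6%) letters. The 7 windows had a median of 30 CpG dinucleotides, from 22 to 41, against a median of 21 over all windows. The stretch shown for Ezh1 holds none of the motifs and so has no capitals. The promoters shown differ in base composition: the upstream 250 bases were 55.2% G or C for Ezh1 and 73.6% for both Suz12 and Ring1. A match or its lack describes these letters only.

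The identity of the cells was read from markers. Of 10 pluripotent markers 9 were in the table, and their summed signal was 57.0 in mitosis, 1297 and 1154 after release (early, then late G1) and 1145 without nocodazole. Of 20 fibroblast feeder markers 11 were in the table, summing to 5.05, 151, 143 and 95.8 in the same order, with Twist1 and S100a4 listed at 0 in mitosis. Fn1 alone gave 106 of the early G1 sum and 61.3 of the late G1 sum, so the sums say little of the other markers. Of these 11 feeder markers, 6 were at least 2-fold higher in late than in early G1 (15.1% of all genes) and none was at least 2-fold lower (7.52%). The part of feeder cells in the results below was not tested. In bulk nuclei, fewer cells of a type and less nascent RNA per cell cannot be told apart.

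Transcription of every Polycomb subunit gene was low in mitosis and back within the 1 h release. Among the catalytic subunits of PRC2, Ezh2 had a signal of 0.629 in mitosis, then 14.6 (early G1) and 11.7 (late G1), with 13.0 in asynchronous cells. Its paralog Ezh1 had 0.345, 10.1, 7.30 and 8.47. Both were highest in early G1, and in late G1 both lay below the asynchronous value. Eed, which encodes the reader of the methyl mark, had 2.88, 71.4, 65.7 and 43.2. Suz12, the scaffold gene, had 2.19, 53.3, 35.1 and 36.6. In late G1, Eed thus stayed near its early G1 value, while Suz12 was close to its asynchronous value.

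Of the accessory subunits of PRC2, Jarid2 had 1.79 in mitosis, then 57.1 and 41.5 after release, with 26.8 in asynchronous cells. Mtf2 had 3.07, 72.7, 48.6 and 51.6. Jarid2 was above its asynchronous value at both release times, and Mtf2 was above it in early G1 and below it in late G1.

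Among the PRC1 genes, Ring1 had 1.34 in mitosis, then 29.3 and 18.6 after release, with 26.1 in asynchronous cells. Rnf2, which encodes the other catalytic RING subunit, had 0.943, 21.7, 15.5 and 14.1. Pcgf6 had 0.866, 19.2, 13.7 and 20.6, and Cbx7 had 2.39, 56.1, 42.4 and 40.3. Pcgf6 was the only subunit gene whose highest value was in asynchronous cells. The other 9 were highest in early G1, as were 44.2% of all genes, and asynchronous cells were highest for 21.8%. The same 9 were above asynchronous cells in early G1 and lower again in late G1, as were 44.5% of all genes. Whether the signal is divided by gene length is not stated, so levels are not compared between genes.

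**Figure D1:**
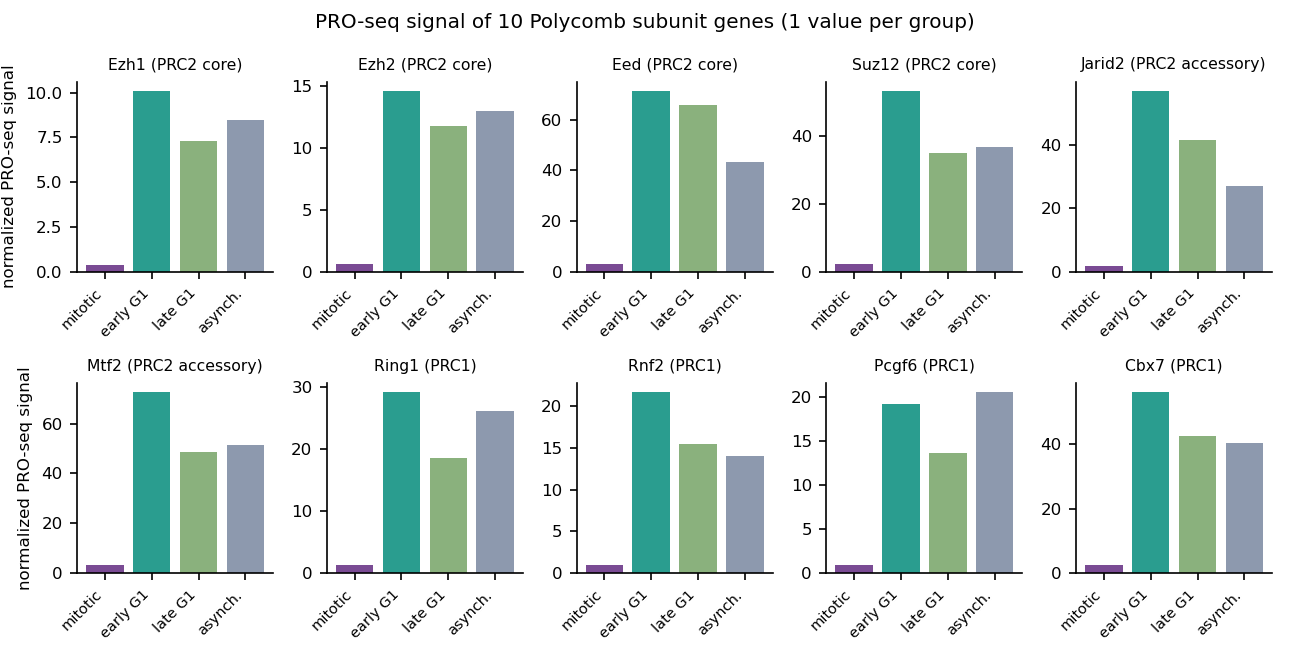
Normalized PRO-seq signal (vertical axis, linear and starting at 0, with a scale of its own in each panel) of the 10 Polycomb subunit genes in mitotic, early G1, late G1 and asynchronous cells. Each bar is 1 combined value per group with no error; the early G1 bar is the tallest in 9 panels, and for Pcgf6 the asynchronous bar is.

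The first comparison set mitotic against asynchronous cells. All 10 genes were at least 2-fold lower in mitosis, as were 99.1% of all genes, so the count is that of the genome. Log2 ratios and the calls made from them are of (signal + 0.1). Percentages and changes of a gene printed as a fold carry no pseudocount. The subunit genes kept a median of 5.94% of their asynchronous signal, and all genes a median of 5.36%. Ezh1 kept least (4.07%) and Rnf2 most (6.70%), with Jarid2 at 6.68%, Eed at 6.67%, Ezh2 at 4.85% and Pcgf6 at 4.20%. On the log2 scale the genes ran from -4.42 for Pcgf6 to -3.76 for Rnf2, a narrow band that held 38.5% of all genes, around a median of -4.02 (all genes -3.89). The order of these 2 medians depends on the pseudocount. With 0.02 the subunit median was -4.06 and that of all genes -4.14, and with 0.5 they were -3.74 and -3.23. All values for mitosis also rest on the authors' scaling of the mitotic column. With the columns brought to equal medians, the fall of the median gene is removed by construction, 6 of the 10 lay above 0 and 4 below, and none was at least 2-fold changed.

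Between mitosis and early G1 all 10 genes were at least 2-fold higher (99.3% of all genes). Without the pseudocount the rise was 31.8-fold for Jarid2, 29.4-fold for Ezh1, 24.8-fold for Eed and 24.3-fold for Suz12, down to 21.9-fold for Ring1. The median over the 10 genes was 23.6-fold and over all genes 23.0-fold. The place of Ezh1 rests on a mitotic signal of 0.345. With the pseudocount its log2 ratio (4.52) was behind those of Eed (4.58) and Suz12 (4.54). With the pseudocount, all 10 lay above the median gene, by 0.11 for Pcgf6 to 0.71 for Jarid2 on the log2 scale. That position depends on the settings: 9 were above the median gene with a pseudocount of 0.02, 8 with equal medians, 7 with a minimum mean signal of 2.5 and 5 with quantile normalization. From mitosis to late G1 all 10 were again at least 2-fold higher (99.7% of all genes), with a median log2 ratio of 3.98 (all genes 4.11).

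The second question was how far transcription in early G1 departed from that of cycling cells. Jarid2 alone passed 2-fold: it was 2.13-fold above its asynchronous signal (log2 ratio 1.08), and 1 of 10 compares with 17.7% of all genes. None was at least 2-fold lower (9.53% of all genes), and 3 were at least 1.5-fold higher (36.4%). Eed stood at 165% of its asynchronous signal, Rnf2 at 154%, Suz12 at 146%, Mtf2 at 141% and Cbx7 at 139%. Ezh1 (120%), Ezh2 (113%) and Ring1 (112%) were closer to it, and Pcgf6 was at 93.3%. Thus 9 of the 10 were above the asynchronous value as deposited (63.7% of all genes), and 6 were with equal medians or quantile normalization. The median log2 ratio was 0.49, against 0.30 for all genes. With those other scalings Jarid2 was at 0.76 and 0.69, below 2-fold.

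Late G1 was then set against asynchronous cells, and the subunit genes parted in direction. None was at least 2-fold higher (16.9% of all genes) or lower (5.14%), and at 1.5-fold 2 were higher (30.5%) and 1 lower (12.3%). As deposited 4 lay above 0 (62.4% of all genes), and with equal medians or quantile normalization 2 did. Jarid2 remained at 154% of its asynchronous signal and Eed at 152%. Rnf2 (110%), Cbx7 (105%), Suz12 (95.8%), Mtf2 (94.3%), Ezh2 (90.4%) and Ezh1 (86.2%) lay within a narrow range around it. Ring1 was at 71.0% and Pcgf6 at 66.4%. The median log2 ratio was -0.07, against 0.21 for all genes. Of the 10, 8 lay below the median gene, and Jarid2 (by 0.42) and Eed (by 0.40) lay above it, which equal medians and quantile normalization did not alter in number. Ring1 and Pcgf6 stood at percentiles 15.3 and 12.2 of all genes, and Jarid2 at 71.2.

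**Figure D2:**
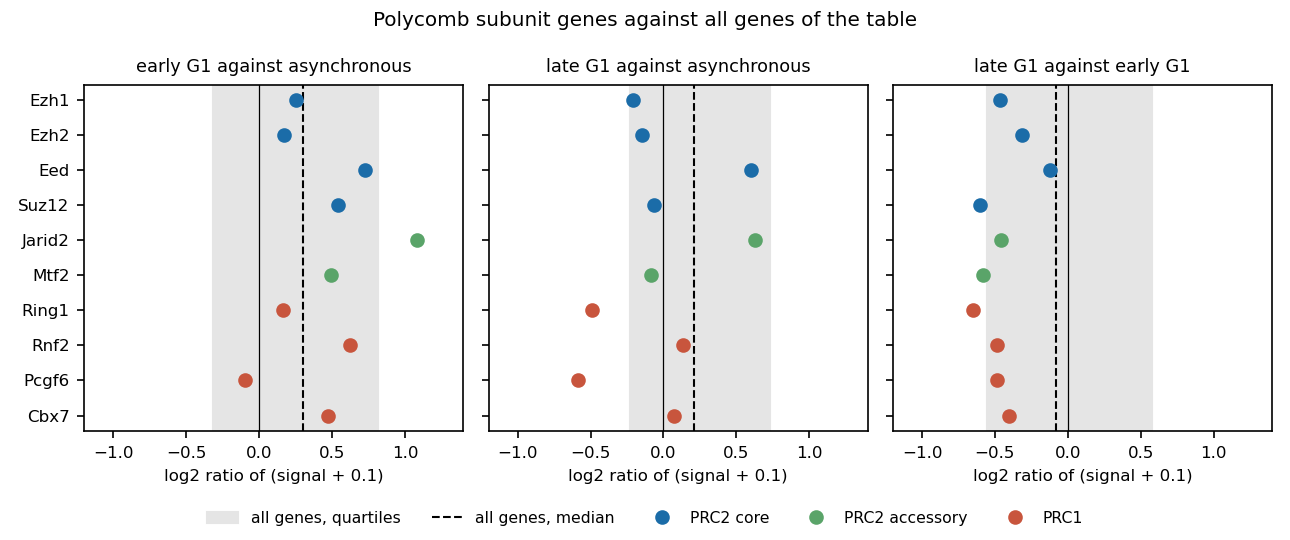
Log2 ratio of (signal + 0.1), horizontal axis, of each subunit gene (rows; colours give the complex) in the 3 comparisons among early G1, late G1 and asynchronous cells, as deposited. Grey bands are the quartiles and dashed lines the median of all genes; in late against early G1 all 10 points lie left of the dashed line, while in late G1 against asynchronous cells Jarid2 and Eed lie right of it.

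Between the release times the subunit genes shared a direction. All 10 genes had a lower signal in late than in early G1 (53.8% of all genes), none of them by 2-fold (7.52% of all genes; 15.1% were 2-fold higher) and 2 by at least 1.5-fold (23.5%). Late G1 held 63.5% of the early G1 signal for Ring1, 65.7% for Suz12, 66.8% for Mtf2, 71.2% for Pcgf6, 71.3% for Rnf2, 72.1% for Ezh1, 72.7% for Jarid2, 75.6% for Cbx7, 80.3% for Ezh2 and 92.0% for Eed. The median over the 10 was 71.7%, and over all genes 94.5%. On the log2 scale the genes ran from -0.65 to -0.12, an interval that held 27.8% of all genes, with a median of -0.48 (all genes -0.08). All 10 lay below the median gene, Eed by 0.04 and the other 9 by 0.23 to 0.57. With quantile normalization Eed turned to 0.04 above early G1, leaving 9 lower, and 9 also lay below the median gene when a minimum mean signal of 2.5 was used. The median of the subunit genes minus that of all genes was -0.39 as deposited and with equal medians. It was -0.29 with that minimum and -0.21 with quantile normalization. The subunit genes were not matched to all genes for level of signal.

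**Figure D3:**
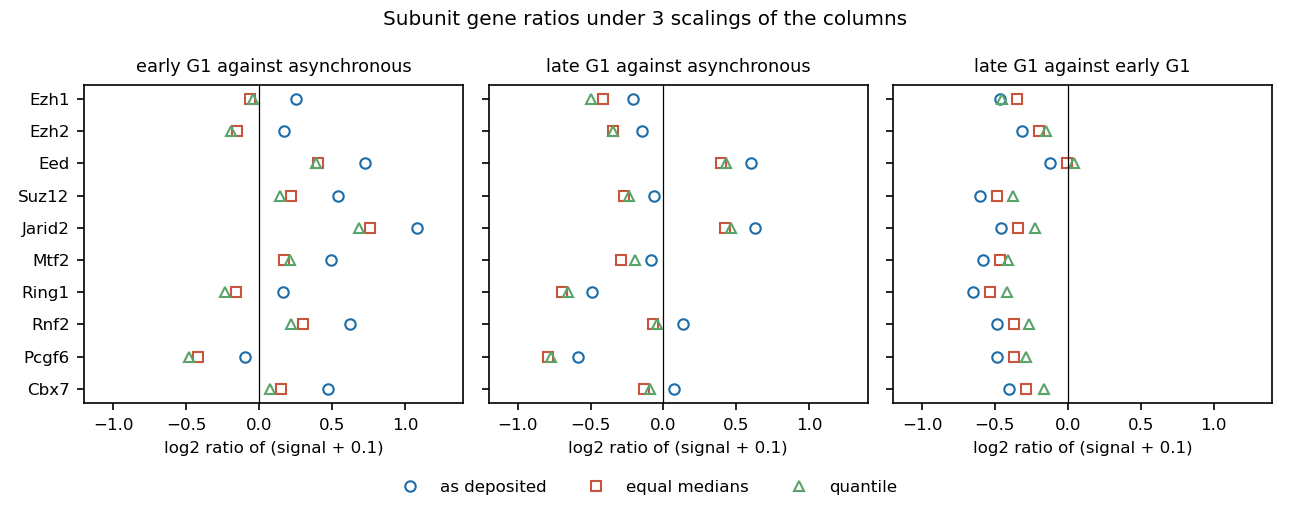
Log2 ratio of (signal + 0.1), horizontal axis, of each subunit gene under the deposited scaling (circles), equal column medians (squares) and quantile normalization (triangles) in the same 3 comparisons. Both rescalings take the number above 0 in early G1 against asynchronous cells from 9 to 6, and in late against early G1 only Eed with quantile normalization lies right of 0.

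Considered together, 9 of the 10 genes stayed within 2-fold in all 3 comparisons among early G1, late G1 and asynchronous cells, against 56.3% of all genes. Jarid2 was the exception. The temporal classes in the authors' deposited table divided the genes evenly. Eed, Suz12, Jarid2, Mtf2 and Rnf2 were Early_Spike (33.7% of all genes), and Ezh1, Ezh2, Ring1, Pcgf6 and Cbx7 were Early_Plateau (26.4%). None was Gradual (15.5%) or Transient (24.5%). The rule behind these classes is unknown here. Among them, 94.3% of Early_Spike genes had their highest value in early G1, against 47.3% of Early_Plateau genes.

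Paralogs and partners within a complex were compared by the ratio of their signals, which a common rescaling of a column does not change. The Rnf2 to Ring1 ratio, between the alternative catalytic subunits of PRC1, was 0.538 in asynchronous cells and 0.704 in mitosis, 0.741 in early G1 and 0.833 in late G1. In late G1 it was 1.55-fold its asynchronous value. The Ezh2 to Ezh1 ratio was 1.53 in asynchronous cells, 1.83 in mitosis, 1.44 in early G1 and 1.61 in late G1. Relative to asynchronous cells it was thus 0.942 in early G1 and 1.05 in late G1. The mitotic ratio rests on signals under 1.

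The Eed to Suz12 ratio was 1.18 in asynchronous cells, 1.34 in early G1 and 1.87 in late G1, the last of these 1.59-fold that of asynchronous cells. Between the accessory subunits, the Jarid2 to Mtf2 ratio was 0.521 in asynchronous cells, 0.785 in early G1 and 0.853 in late G1, or 1.64-fold the asynchronous ratio. Of the 4 pairs, the catalytic PRC2 pair thus had the late G1 ratio closest to that of asynchronous cells. These pairs were chosen by their roles, and no error can be put on their ratios.

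**Figure D4:**
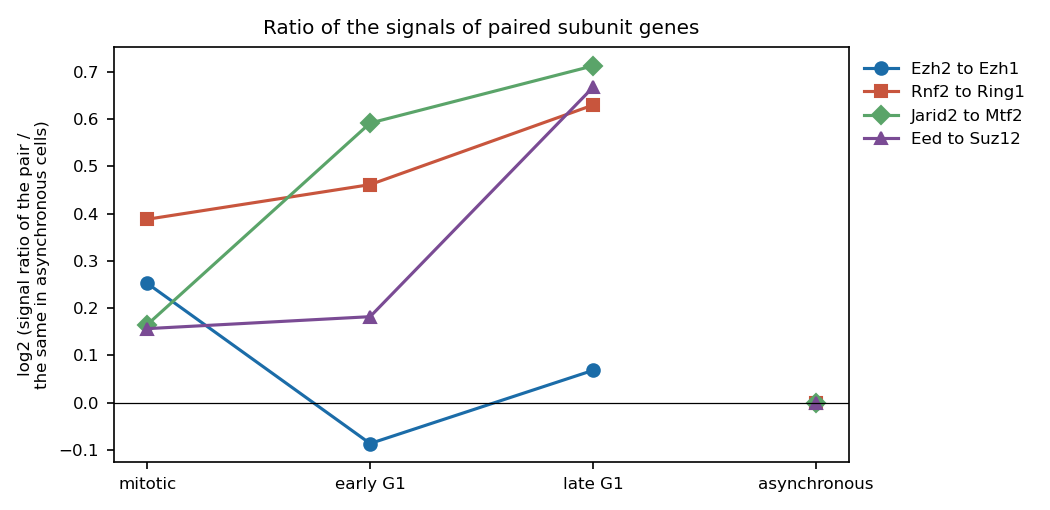
Log2 of the ratio of 2 subunit genes' signals divided by the same ratio in asynchronous cells (vertical axis) in each group (horizontal axis); lines join the mitotic, early G1 and late G1 values of a pair, and asynchronous cells are at 0 by definition. In late G1 the Rnf2 to Ring1, Eed to Suz12 and Jarid2 to Mtf2 pairs lie between 0.63 and 0.71, and Ezh2 to Ezh1 at 0.07.

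The likeness of the patterns was measured as the Euclidean distance over the 3 log2 ratios to asynchronous cells, a description over 3 ratios that share 1 column. Among the subunit genes, Suz12 and Mtf2 were nearest to each other, 0.06 apart. A wider search covered 7001 genes at or above the median level, with predicted and clone names left out. There Mtf2 was the third nearest to Suz12 and Suz12 the second nearest to Mtf2. Ezh1 and Ezh2 were nearest to each other among the subunit genes as well (0.15). The farthest pair was Jarid2 and Pcgf6 (1.79). For Jarid2, the subunit gene highest in late G1 against asynchronous cells, the nearest of the 7001 genes were Zfp160 (0.03), Pak2 (0.05) and Zbtb5 (0.06). For Pcgf6, the lowest, they were Bcat2 (0.05), Ddit3 (0.06) and Prss35 (0.06).

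Further genes of PRC2 and its partners were read from a list of their own. Some of them also have other roles, among them the elongin genes Eloa, Elob and Eloc. Of 11 further PRC2 genes 10 were in the table; in early G1 3 of them were at least 2-fold above asynchronous cells (17.7% of all genes) and none was 2-fold below (9.53%). Their median log2 ratio was 0.78, against 0.30 for all genes. Aebp2, whose product joins JARID2 in the same PRC2 form, had 87.4 (early G1), 63.8 (late G1) and 37.7 (asynchronous). Its log2 ratios to asynchronous cells, 1.21 and 0.76, lie beside those of Jarid2 (1.08 and 0.63). So do those of Lcor in the same list (0.99 and 0.70) and of Asxl2 outside PRC2 (1.20 and 0.68). The likeness is therefore not particular to Aebp2. Aebp2 and Jarid2 were above asynchronous cells at both release times under all 3 scalings.

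Mtf2 belongs to the Polycomb-like family with Phf1 and Phf19. Phf1 had 98.3 (early G1), 52.7 (late G1) and 45.5 (asynchronous), and Phf19 had 2.07, 2.11 and 3.38. Epop, an accessory gene of the same PRC2 form, had 148, 144 and 237. Phf19 and Epop thus lay below their asynchronous values at both release times, and Mtf2 and Phf1 above theirs in early G1, under all 3 scalings. Eloc, an elongin gene, had 46.0 (early G1), 27.1 (late G1) and 19.9 (asynchronous). Across the 10 further PRC2 genes, none was 2-fold higher (15.1% of all genes) or lower (7.52%) in late than in early G1, and their median was -0.46 (all genes -0.08).

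Cbx7 was set beside Cbx2, Cbx6 and Cbx8, which encode other readers of canonical PRC1 and were named after their values were seen. Cbx2 had 8.92 (early G1), 13.8 (late G1) and 35.6 (asynchronous). It was at least 2-fold below its asynchronous signal at each release time. Cbx6 had 41.1, 44.0 and 75.1, and Cbx8 had 10.3, 11.9 and 20.4, and as deposited neither was 2-fold below its asynchronous signal at a release time. With equal medians both passed 2-fold in early G1 (-1.19 and -1.30 on the log2 scale). In early G1 these 3 genes lay between -1.99 and -0.87 on the log2 scale, while Cbx7 lay at 0.48. They were below asynchronous cells under all 3 scalings, and Cbx7 in early G1 was above asynchronous cells under all 3 (0.15 with equal medians and 0.08 with quantile normalization). The table's classes set the 3 genes in Gradual and Cbx7 in Early_Plateau.

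Pcgf6 was likewise set beside the other PCGF genes, which define the PRC1 forms. Bmi1 (PCGF4) had 22.7 (early G1), 12.2 (late G1) and 6.08 (asynchronous), and was 3.74-fold above asynchronous cells in early G1. Pcgf3 had 21.8, 30.8 and 10.5. Pcgf1 had 4.85, 14.3 and 11.0, so it was at least 2-fold below asynchronous cells in early G1 and at least 2-fold higher in late than in early G1. Pcgf2, the closest paralog of Bmi1, had 70.3, 53.0 and 75.8, an order of groups like that of Pcgf6, and Pcgf5 had 5.22, 5.71 and 4.58. The 6 genes therefore did not share a pattern.

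Over the whole lists, 12 of 13 further canonical PRC1 genes were in the table, with 2 at least 2-fold above asynchronous cells in early G1 (17.7% of all genes) and 2 below (9.53%), and a median log2 ratio of 0.12 (all genes 0.30). Scmh1 was the only one changed by 2-fold between the release times, from 18.5 to 97.4. The median of the 12 in late against early G1 was -0.04 (all genes -0.08), with 6 above 0 and 6 below (53.8% of all genes below). They thus did not share the lower late G1 signal of the subunit genes. Of 26 partners of variant PRC1, some of which also have other roles, 25 were in the table. In early G1 2 of these were at least 2-fold above asynchronous cells and 1 below, with a median of 0.58. Both shares are smaller than the 17.7% and 9.53% of all genes. In late against early G1 the median of the 25 was -0.16, with 10 above 0 and 15 below. Rybp, whose product stimulates variant PRC1, was 2.15-fold above its asynchronous signal of 23.2 in early G1 and had 27.9 in late G1, and L3mbtl1 had 13.8, 6.10 and 7.02. E2f6, a DNA-binding partner of PCGF6, had 9.14, 10.9 and 5.05.

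The opposing activities were read from 20 genes of trithorax-type methyltransferase complexes and of demethylases for lysine 27, all in the table. Between early and late G1, 4 of them were at least 2-fold lower (7.52% of all genes) and none higher (15.1%), with a median of -0.48 (all genes -0.08). Kdm6a, a lysine 27 demethylase gene, went from 19.1 to 6.40, with 5.67 in asynchronous cells, and Kmt2e from 21.9 to 7.34. Kdm6b, the other lysine 27 demethylase gene of the list, did not fall: it went from 78.1 to 80.2, with 105 in asynchronous cells. Paxip1 went from 42.6 to 20.9, and Pagr1a from 102 to 45.5. Of 11 genes of the deubiquitinase that removes the PRC1 mark 10 were in the table, with a median of -0.43 between the release times and 1 at least 2-fold lower (7.52% of all genes), Mbd5 (5.76 to 2.62). Asxl2 stood at 32.2 in early G1 against 13.9 without nocodazole.

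Developmental regulators known as Polycomb targets were the last list. Of 121 genes 103 were in the table. Between early and late G1, 28 of the 102 with a ratio were at least 2-fold higher (15.1% of all genes) and 11 at least 2-fold lower (7.52%). Their median log2 ratio was 0.38, against -0.08 for all genes and -0.48 for the subunit genes. Lhx1 had 3.42 (early G1), 20.4 (late G1) and 0.444 (asynchronous), and Neurod1 had 58.5, 129 and 12.4. Gata2 had 0.954, 7.60 and 8.80, and Hoxa7 had 0.233, 4.03 and 1.35. Others changed in the opposite direction: Fgf8 went from 3.76 to 0.481, Hoxb8 from 6.36 to 1.16 and Isl1 from 3.20 to 0.210. Some of these values are not far above the pseudocount of 0.1, such as 0.210 for Isl1, 0.233 for Hoxa7 and 0.444 for Lhx1. Folds that rest on them are uncertain in both directions. The developmental genes were not matched to all genes for level of signal. These lists were compared by counts and medians only, and no relation between them was tested.

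**Figure D5:**
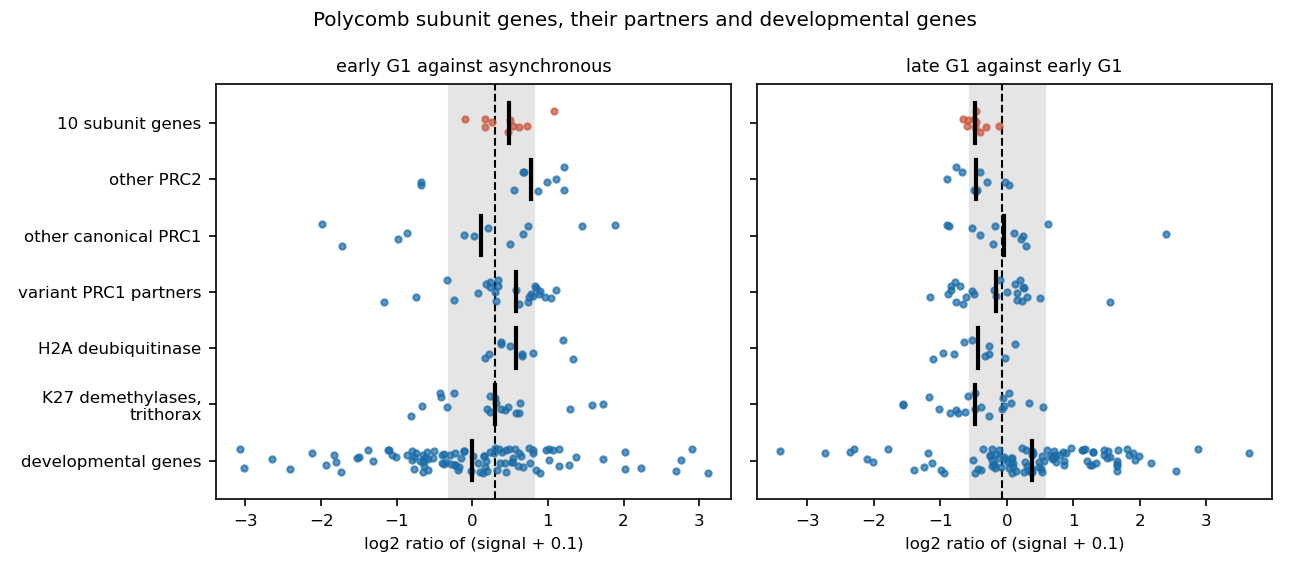
Log2 ratio of (signal + 0.1), horizontal axis, of single genes (points) in the 10 subunit genes and the other lists (rows) for early G1 against asynchronous cells and late against early G1. Black bars are list medians, grey bands the quartiles and dashed lines the median of all genes; in late against early G1 the subunit genes sit between -0.65 and -0.12, and the developmental genes spread from -3.41 to 3.63.

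Some values have limits of assignment. Cbx7 overlaps Apobec3 over 2415 bp and Ezh2 overlaps a long noncoding RNA gene over 62 bp in the RefSeq annotation, and whether reads were counted by strand is not stated. The table's start of Jarid2 lies 3266 bp inside the annotated gene, and that of Eed 515 bp inside. The start of Cbx7 lies 24 bp inside its gene but 38473 bases from the nearest RefSeq promoter window. Which transcripts these values reflect is not stated. The contrast of Cbx7 with Cbx2, Cbx6 and Cbx8 carries this limit.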

How the data were processed

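The 8 PRO-seq libraries (4 groups of 2) reached GEO as 1 table with 1 signal column per group, per the file headers. The authors' deposited values are a normalized signal per gene; the sources used here do not give how libraries were combined and scaled or how reads were assigned to genes. Per the submitters' processing notes, the tools were SAMtools, Picard, Bowtie2 and cutadapt, and the build GRCm38, also called mm10. The temporal class in the authors' deposited table is a text label of another kind.

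With 1 column per group no test could be run. From the deposited signal, log2 ratios of (signal + 0.1) were computed over 14814 genes with a mean signal of at least 0.5 (47 removed). Genes listed at 0 in a compared column (431 have a 0 somewhere) were left out of that ratio. A gene was called changed at 2-fold. Columns summed to 16863 (mitotic), 361203, 326086 and 309144 (asynchronous), so comparisons with mitosis rest on the authors' scaling. The subunit genes and lists were chosen with earlier results of these data known, and lists written from general knowledge. Named from each list were up to 4 genes with the largest change past 2-fold in early or late G1 against asynchronous cells and up to 4 between the release times. The PRC2 accessory, CBX and PCGF relatives, Lcor and Kdm6b, all named beside them, were chosen after their values were seen. So was which of the qualifying genes to print. Some genes of these lists are counted but not reported by name here. The planned protein comparison of paralogs was not made, since no protein table was used here. A simulation of 14492 genes checked the arithmetic of the ratio step only. It put a copy of the asynchronous column in place of late G1, without noise, and gave chosen genes exact folds beyond 2-fold. The step recovered 200 of 200 changed genes and called no other. That outcome was fixed by the set-up and says nothing of accuracy on the real comparison. Python 3.11.15, pandas 2.3.3, numpy 2.4.6 and matplotlib 3.10.9 were used.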

Additional observations from a re-analysis of the deposited data

How the results depend on the processing

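Directions and calls were recomputed with pseudocounts of 0.02 and 0.5, equal column medians, quantile normalization, other minimum signals, genes listed at 0 kept and a 1.5-fold threshold. The other minimum signals and the keeping of genes listed at 0 could not alter a subunit gene's ratio. All 10 genes passed those minimums and none was listed at 0. Of 420 single-gene ratios under an alternative, with those fixed ones counted, 347 kept direction and side of the threshold and 24 lost the call. The other 49 changed sign, all under equal medians or quantile normalization. Of these, 38 were called comparisons with mitosis, where both rescalings remove a general fall by construction, and 11 were ratios under 2-fold among the other groups. With both rescalings Ezh1, Ezh2 and Ring1 turned below 0 in early G1 against asynchronous cells and Rnf2 and Cbx7 in late G1, and with quantile normalization Eed turned above 0 (0.042) in late against early G1.

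With equal medians, none of the 10 genes was 2-fold lower in mitosis or 2-fold higher after it, and 0 were 2-fold higher in early G1 than in asynchronous cells. The median log2 ratios became 0.19 for mitotic against asynchronous, -0.032 for early G1 and -0.38 for late G1 against mitotic, -0.36 for late against early G1, and -0.28 (late) and 0.16 (early) against asynchronous cells. Mitotic against asynchronous turned for Eed (0.36), Suz12 (0.21), Jarid2 (0.36), Mtf2 (0.20), Rnf2 (0.37) and Cbx7 (0.19). Early G1 against mitotic turned for Ezh2 (-0.055), Mtf2 (-0.026), Ring1 (-0.14), Rnf2 (-0.069), Pcgf6 (-0.12) and Cbx7 (-0.038). Late G1 against mitotic turned for Ezh1 (-0.069), Ezh2 (-0.25), Suz12 (-0.47), Mtf2 (-0.49), Ring1 (-0.68), Rnf2 (-0.44), Pcgf6 (-0.49) and Cbx7 (-0.32).

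With quantile normalization the same 4 counts were 0. The medians in the same order were 0.066, 0.043, -0.25, -0.28, -0.22 and 0.11. Mitotic against asynchronous turned for Eed (0.20), Suz12 (0.075), Jarid2 (0.27), Mtf2 (0.078), Rnf2 (0.32) and Cbx7 (0.057). Early G1 against mitotic turned for Ezh2 (-0.078), Ring1 (-0.15), Rnf2 (-0.10) and Pcgf6 (-0.16). Late G1 against mitotic turned for Ezh1 (-0.15), Ezh2 (-0.23), Suz12 (-0.31), Mtf2 (-0.28), Ring1 (-0.57), Rnf2 (-0.36), Pcgf6 (-0.45) and Cbx7 (-0.15).

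A pseudocount of 0.5 gave medians of -3.74 (mitotic against asynchronous), 4.15 and 3.596 (early and late G1 against mitotic). At 1.5-fold, 2 genes were lower in late than in early G1, 2 were higher and 1 lower in late G1 than in asynchronous cells, and 3 were higher in early G1. Over all genes, the 2-fold calls for early G1 against asynchronous cells were 2596 higher and 1397 lower as deposited, 1279 and 2184 with equal medians, and 1439 and 1707 with quantile normalization. For late G1 they were 2483 and 755, 1906 and 1163, and 1701 and 1474, and for late against early G1 2226 and 1106, 2566 and 763, and 1655 and 1216. No paired analysis was possible because the table gives 1 combined column per group, and leaving out a library was not run for the same reason. Depth is unknown, so counting error cannot be given.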
